A study of Homo sapiens with 6 samples.

Results

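The genes described here encode the zinc proteases that cut the extracellular matrix and cell surface proteins, together with their natural inhibitors. They comprise 18 matrix metalloproteinases (MMPs), 11 ADAMs, 16 ADAMTS proteases and the 4 tissue inhibitors of metalloproteinases (TIMPs), 49 of the 37224 different gene names in the tables, each taken at its entry on a primary chromosome. They were taken by gene symbol, with no rule on their values, but earlier results of these data were known when they were chosen. RNA of HK-2 cells was sequenced. This immortalised human line was derived from the proximal tubule of a kidney, and the labels give it as wild type. The Control group was untreated and the TGF-β1 group was treated with transforming growth factor β1 for 24 hours, with 3 libraries in each group. The labels give no dose. The methods of the study give a dose and serum-free medium for TGF-β experiments in general, without naming the sequenced cells or the untreated ones. Nothing in the labels says that the libraries came from separate cultures, so the p-values measure the spread between these libraries, which may be technical.

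Most MMPs, ADAMs and ADAMTS proteases are made as inactive precursors whose prodomain must be removed. Most MMPs are secreted and a few, the membrane-type MMPs, stay anchored at the cell surface. ADAMs are membrane proteins that shed growth factors, receptors and adhesion molecules, and ADAMTS proteases are secreted and cut proteoglycans, procollagens and microfibril proteins. TIMPs plug the active site of these enzymes. TIMP2 also forms a surface complex with MMP14 in which the precursor of MMP2 is activated. The balance of these enzymes and inhibitors is studied in renal fibrosis because it helps set how matrix is laid down and removed, and MMP7 is known as a marker of tubular injury.

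The libraries held 21938622 to 26906067 counts. TGF-β1 replicate 1 stood apart from TGF-β1 replicates 2 and 3 on the second principal component (26.9 against -13.2 and -15.1), and leaving it out changed the call of no protease or TIMP. The TGF-β response genes PMEPA1, TGFBI, LTBP2 and SMAD7 rose, with log2 fold changes from 1.64 to 2.60. The labelled cell type was only partly borne out by its markers. LRP2 and SLC22A6 had no reads in any library, HNF4A had 0 and 1 reads in the 2 groups, and 7 of 10 proximal tubule markers were too low to test. The other 3 were GGT1, which fell from 75.6 to 50.5 CPM (counts scaled to the library size), and AQP1 and CUBN, which rose from 0.396 to 1.72 and from 0.485 to 0.861 CPM. AQP1 and CUBN passed the filter on low counts in the TGF-β1 group only, so their calls are no support for a rise. PAX8, KRT8 and KRT18 were well expressed (Control means of 251, 488 and 202 CPM). Of 7 kidney epithelial markers, KRT8 and KRT18 rose and 5 fell, PAX8 among them, and the part of such shifts in the results below was not tested. Of 5 leukocyte markers, CD3E had no reads and PTPRC 2 in each group, with summed levels of 95.03 to 104 CPM in Control and 61.6 to 85.4 with TGF-β1, nearly all CD68. Of 5 fibroblast markers, PDGFRA had 2 and 4 reads, PDGFRB rose from 0.551 to 5.79 CPM, and LUM and THY1 fell, from 61.7 to 51.0 and from 0.895 to 0.269 CPM, with summed levels of 59.8 to 69.2 and 56.8 to 58.1. THY1 passed the filter in the Control group only, so its call is no support for a fall. The 5 endothelial markers summed to 0.940 to 1.68 and 0 to 0.0955 CPM. These are sums over all cells of a culture, in which fewer cells of a kind and less RNA per cell cannot be told apart.

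Of the 49 genes, 32 passed the filter on low counts, 28 of them in each group taken alone. With TGF-β1, 14 rose and 12 fell at an adjusted p under 0.05 (edgeR quasi-likelihood test, Benjamini-Hochberg adjustment over all 14860 genes tested), and 6 were not called. Over all genes tested, 44.3% were called, 22.2% higher and 22.1% lower. At a change of at least 2-fold, 9 rose and 2 fell, beside 3.68% and 5.38% of all genes (9.06% in either direction). The levels of the 3 Control and the 3 TGF-β1 libraries did not overlap for 28 of the 32 genes, which held for 55.6% of all genes. The median log2 fold change of the 32 genes was 0.03, beside 0.01 for all genes. MMP2, MMP9 and MMP17 passed the filter in the TGF-β1 group only, and ADAMTS17 in neither group taken alone. These genes count as support for no direction of the list, although MMP2 and MMP9 are among those counted as rising, also at 2-fold.

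**Figure D1:**
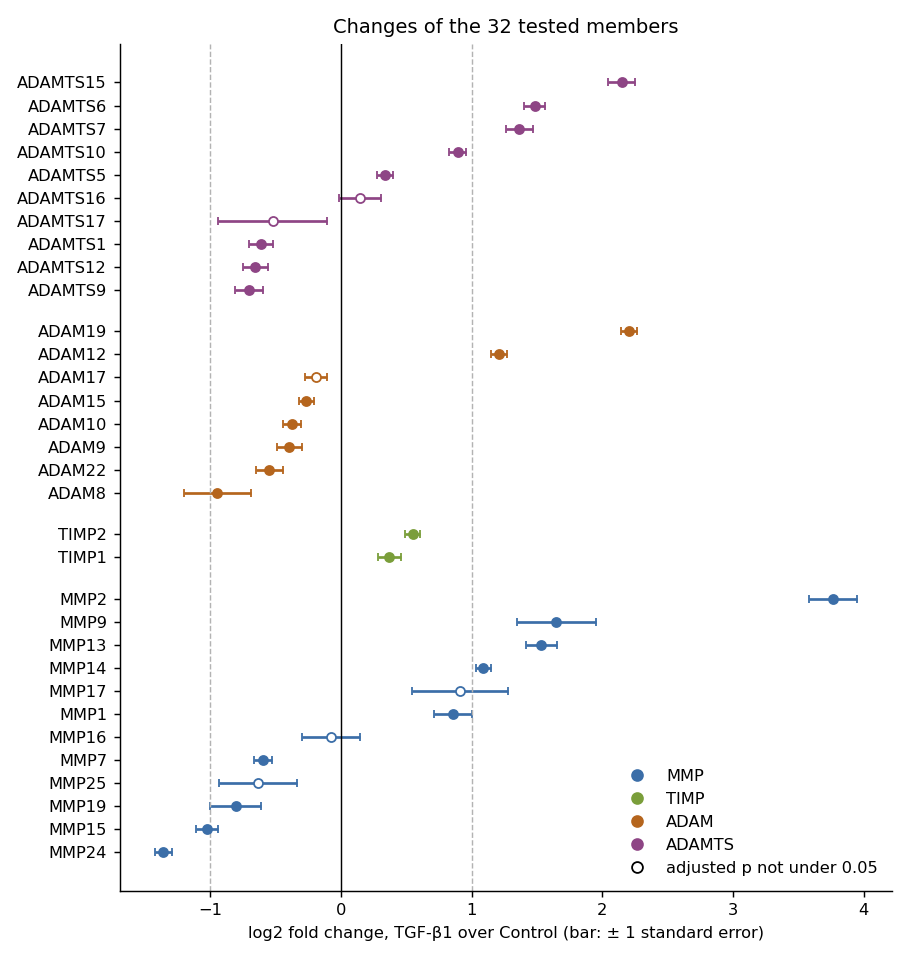
Log2 fold change with TGF-β1 over Control (x axis) of the 32 tested genes, grouped as MMP, TIMP, ADAM and ADAMTS and ordered by size. Bars are ± 1 standard error, open circles are the 6 genes not called, and dashed lines mark a 2-fold change. MMP2 at 3.77, ADAM19 at 2.20 and ADAMTS15 at 2.15 lie farthest to the right and MMP24 at -1.36 farthest to the left.

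The 2 gelatinases and 2 of the 3 collagenases were called higher, beside 22.2% of all genes tested. The other collagenase, MMP8, had no reads. These subgroups of MMPs, and the membrane-type MMPs below, were formed after the values were seen. The gelatinases passed the filter only through the TGF-β1 libraries, so their calls are no support for a rise. A fit of all genes with at least 1 count gave log2 fold changes of 3.78 for MMP2 and 1.66 for MMP9. It used the same 6 libraries and adds no separate support. MMP2, the gelatinase of basement membranes and denatured collagen (chr16:55478830-55506691 in hg38, the build of all gene positions here), had 0.399, 0.491 and 0.469 CPM in Control and 6.76, 5.42 and 6.54 with TGF-β1. Every treated library stood far above every control library, from 32 reads in all to 444. Its log2 fold change was 3.77 ± 0.18 (SE, 3 libraries a group, adjusted p 5.03e-08), the largest of the 32 genes. MMP9, the other gelatinase (chr20:46008908-46016561), had 0.487, 0.368 and 0.597 CPM in Control and 1.88, 1.65 and 1.003 with TGF-β1. The groups were separate but both low, with a log2 fold change of 1.65 ± 0.30 (adjusted p 0.00121). MMP9 shares 18.3% of its exon bases with an antisense entry, SLC12A5-AS1, which had 50 and 40 reads in the 2 groups while MMP9 had 34 and 110. MMP13, a collagenase of fibrillar collagens (chr11:102942995-102955732), had 4.12, 4.29 and 3.96 CPM in Control and 13.5, 10.5 and 11.9 with TGF-β1, without overlap. This was a log2 fold change of 1.53 ± 0.12 (adjusted p 1.85e-06). MMP1, the interstitial collagenase, rose by 0.85 ± 0.14 on the log2 scale from 2.96 to 5.35 CPM.

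The membrane-type MMPs did not all move the same way. Of 6 tested, 1 rose, 2 fell and 3 were not called. The share called, 50%, was near the 44.3% of all genes tested, so it is no result about this subgroup. MMP14, a surface collagenase that also activates the MMP2 precursor (chr14:22836585-22847758), had 212, 219 and 218 CPM in Control and 493, 442 and 446 with TGF-β1. All treated libraries stood above all controls, a 2.13-fold change with a log2 fold change of 1.09 ± 0.06 (adjusted p 9.83e-08). MMP15, another transmembrane member (chr16:58025754-58046901), had 78.6, 88.0 and 73.4 CPM in Control and 43.1, 38.0 and 36.6 with TGF-β1. It fell by 1.03 ± 0.08 on the log2 scale (adjusted p 3.08e-06), and no treated library reached the lowest control. MMP24, best known from the nervous system (chr20:35226690-35276998), had 102, 103 and 93.5 CPM in Control and 40.5, 39.2 and 36.6 with TGF-β1. It fell by 1.36 ± 0.06 on the log2 scale (adjusted p 3.73e-08), the largest fall of the 32 genes. MMP24 shares 14.1% of its exon bases with the antisense entry MMP24OS, which had 535 reads in all against 9786. Per length, MMP14 stood at 2.99 ± 0.27 times the level of MMP15 in Control and at 12.9 ± 0.43 times with TGF-β1 (SD, n = 3, ratio of TPM, counts per gene length scaled to each library). The other 3, MMP16 and the lipid-anchored MMP17 and MMP25, were low in all libraries, at most 1.83 CPM. Their log2 fold changes were -0.08 ± 0.22, 0.91 ± 0.37 and -0.63 ± 0.30, which does not show that they were unchanged, and MMP25 was called lower without TGF-β1 replicate 3 (adjusted p 0.0378). MMP25 shares 11.7% of its exon bases with the antisense entry MMP25-AS1, which had 205 reads in all against 115.

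**Figure D2:**
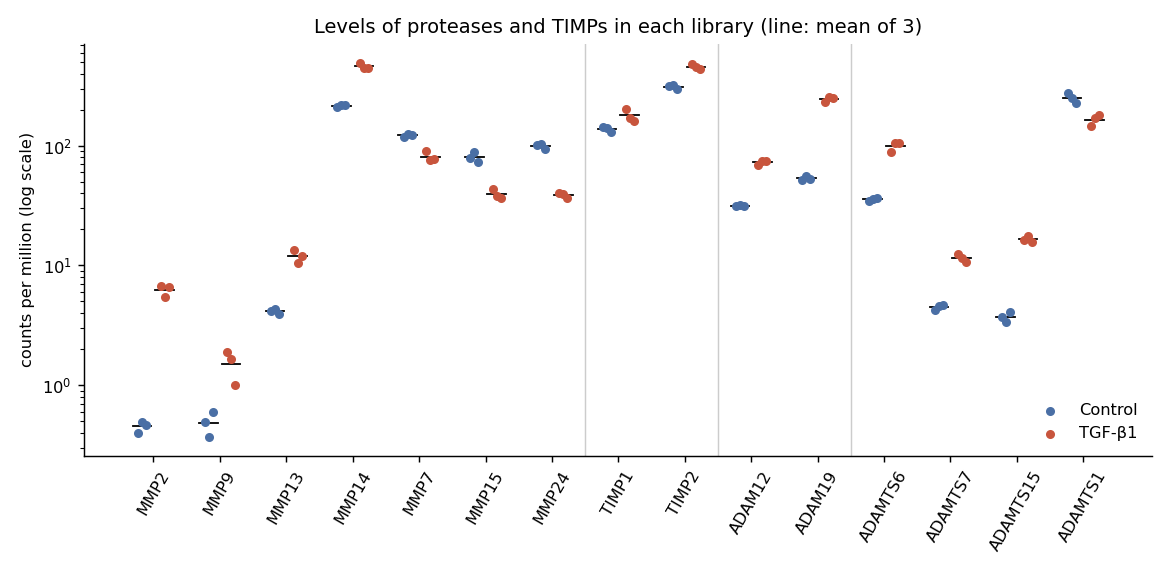
CPM on a log scale (y axis) in each library for 13 proteases and both tested TIMPs, with Control in blue, TGF-β1 in red and the mean of 3 libraries as a line. All of them are called genes, and their groups do not overlap, which held for 55.6% of all genes tested. MMP2, which passed the filter in the TGF-β1 group only, moves from 0.453 to 6.24 CPM.

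MMP7, or matrilysin, a small secreted protease of epithelia, had the highest level per length of the MMPs in Control (364 TPM, against 195 for MMP14). It had 119, 126 and 122 CPM in Control and 89.9, 75.8 and 77.3 with TGF-β1. The treated libraries all lay below the controls, with a log2 fold change of -0.60 ± 0.07 (adjusted p 5.09e-05). MMP19, a widely expressed secreted MMP, fell as well, from 3.78 to 2.16 CPM (-0.81 ± 0.20 on the log2 scale, adjusted p 0.00687).

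MMP7, MMP1 and MMP13 belong to a cluster of 9 MMP genes on the minus strand of chromosome 11 (chr11:102520508-102955732 in hg38, 435.2 kb), and they did not move together. MMP7 at the low-coordinate end fell, while MMP1 and MMP13 rose. Between them, MMP10 (stromelysin, a broad matrix protease that activates other MMPs) had 0, 1 and 1 reads in the Control libraries and 13, 12 and 8 with TGF-β1. This gene was under the count filter. The ratio of its pooled levels was 16.3 with an exact 95% interval from 4.18 to 141 that covers counting error only, and an exact two-sided permutation test over libraries gave p = 0.1, the smallest that 3 against 3 libraries allow. In a fit of all genes with at least 1 count its log2 fold change was 3.81 ± 0.73. That fit used the same few reads, so MMP10 is no support for a rise. MMP3, the other stromelysin, had 5 and 4 reads in all, and MMP8 and MMP12, the collagenase and elastase of leukocytes, had none.

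**Figure D3:**
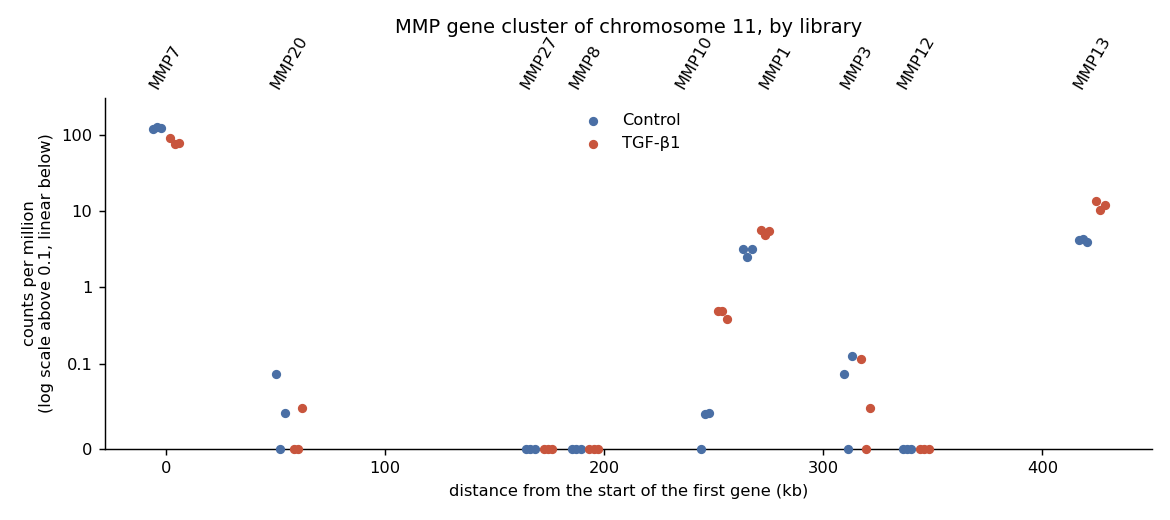
CPM in each library (y axis, log scale above 0.1 and linear below) of the 9 MMP genes of the chromosome 11 cluster by distance from the start of the first gene in kb (x axis), with Control in blue and TGF-β1 in red. MMP7 at 0 kb is lower with TGF-β1, and MMP1 and MMP13 at 269.4 and 422.5 kb are higher. MMP10 at 250 kb has more reads with TGF-β1 but was under the count filter. The other 5 genes hold at most 3 reads in a library.

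The 250 bases before the start of MMP7 and of MMP10, in the same cluster, are shown because both hold the same kind of element at the same distance. MMP7 fell, and MMP10 had more reads with TGF-β1 but was under the count filter. A link of the element to the level of either gene was not tested. The capitals mark matches to the AP-1 element TGANTCA, which is its own reverse complement apart from the middle base. The sequences are from RefSeq (GRCh38.p14, minus strand, written 5′ to 3′ toward the start), at chr11:102530748-102530997 and chr11:102780629-102780878, each ending where the gene entry of the files begins.
MMP7: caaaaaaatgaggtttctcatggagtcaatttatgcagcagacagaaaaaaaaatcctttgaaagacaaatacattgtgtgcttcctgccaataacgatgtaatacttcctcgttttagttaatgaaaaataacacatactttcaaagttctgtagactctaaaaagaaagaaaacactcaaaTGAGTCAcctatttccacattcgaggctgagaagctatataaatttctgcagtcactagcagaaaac
MMP10: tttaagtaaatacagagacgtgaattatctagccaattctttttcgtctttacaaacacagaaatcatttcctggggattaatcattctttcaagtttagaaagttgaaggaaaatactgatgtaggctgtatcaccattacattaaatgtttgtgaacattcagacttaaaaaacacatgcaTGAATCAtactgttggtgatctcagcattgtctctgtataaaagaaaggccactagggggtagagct
The match began 67 bases before the start in MMP7 and in MMP10. In MMP7 and MMP10 a TATA box (TATAAA) began 30 and 31 bases before the start. Neither overlapped another motif searched. Promoters of 300 bases (250 before to 50 after the start) were listed for 27 of the 49 genes, and both strands were searched. Starts are those of RefSeq, and that of ADAMTS12 lies inside its gene entry in the files. AP-1 was held by 3 of the 27 (MMP7, MMP10 and ADAMTS12), beside 7.71% of all 35116 promoters. The short SMAD element CAGAC was held by 17 (63.0% against 45.3% of all), among them MMP14, ADAM12, ADAM19 and ADAMTS6, which rose, and MMP15, MMP24 and ADAM10, which fell. TATAAA was held by 4 (14.8% against 11.5%) and the ETS element AGGAAG by 9 (33.3% against 33.6%). A match is a string of letters and not a shown binding site.

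TIMP1 and TIMP2 rose, less than the leading proteases. TIMP2 (chr17:78852977-78925387) had 315, 320 and 298 CPM in Control and 478, 455 and 434 with TGF-β1. The groups did not overlap, and the log2 fold change was 0.55 ± 0.06 (adjusted p 1.96e-05). TIMP1, which inhibits most secreted MMPs but membrane-type MMPs poorly (chrX:47582408-47586789), had 145, 142 and 129 CPM in Control and 204, 170 and 162 with TGF-β1. Its log2 fold change was 0.37 ± 0.09 (adjusted p 0.00559), and TGF-β1 replicate 1 was the highest library for each of them. TIMP3, which is bound to the matrix and inhibits ADAMs and ADAMTS proteases as well, and TIMP4 had no reads in any library. With 3 counts as the limit, this allows at most 0.0426 CPM in Control and 0.0422 with TGF-β1. RTCB and FBXO7, single-entry genes 389458 and 302876 bases from TIMP3, had 1757 to 2409 and 1506 to 2094 reads a library.

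Levels between genes were compared per length, as TPM. These are scaled to each library total, without the further scaling used for CPM and fold changes. Scaling counts to totals only shifted the all-gene median log2 fold change by -0.11. Differences between the groups in summed TPM, here and below, carry that limit. The summed TPM of the 18 MMPs was 687, 733 and 718 in Control and 726, 672 and 672 with TGF-β1, so that the groups overlapped (713 ± 23.6 and 690 ± 31.2, SD, n = 3). The make-up of the sum differed. MMP7 gave 51.1 ± 0.45% of the MMP sum in Control and 32.1 ± 0.67% with TGF-β1, while MMP14 gave 27.3 ± 0.53% and 55.2 ± 0.64%. MMP2, in spite of its fold change, gave 0.0516% and 0.676%. The summed TPM of the TIMPs was 539, 547 and 515 in Control and 718, 680 and 641 with TGF-β1, without overlap. The ratio of summed MMP to summed TIMP TPM was 1.27, 1.34 and 1.40 in Control and 1.01, 0.989 and 1.05 with TGF-β1. It was thus lower in every treated library, whereas the ratio of MMP14 to TIMP2 was higher in every treated library, 0.688 ± 0.031 in Control and 0.998 ± 0.033 with TGF-β1. These sums and ratios are descriptions of RNA, in which the few abundant genes decide, and no test was made of them.

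**Figure D4:**
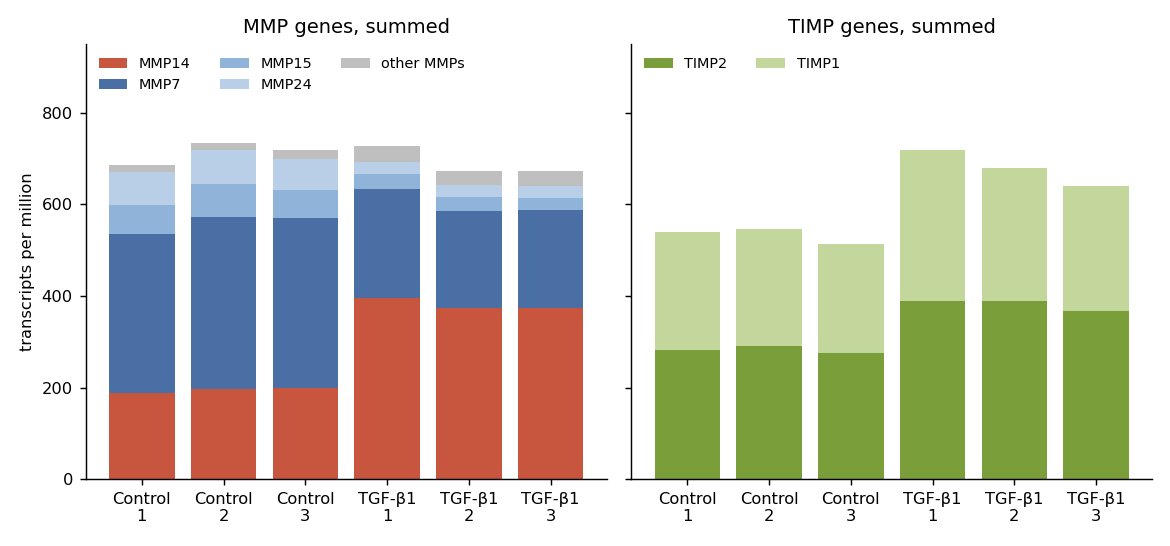
Summed TPM (y axis, from 0) of the 18 MMP genes (left) and of the TIMP genes (right) in each of the 6 libraries, with MMP14 in red, MMP7, MMP15 and MMP24 in blues and the other MMPs in grey. TPM is scaled to library totals. The MMP bars average 713 and 690, while MMP14 makes up 27.3% of them in Control and 55.2% with TGF-β1, and the TIMP bars average 533 and 679.

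Among the ADAMs, 2 rose and 5 fell of 8 tested, beside 22.2% higher and 22.1% lower of all genes tested. ADAM19, a sheddase of neuregulins (chr5:157477304-157575775), had 52.1, 55.3 and 53.1 CPM in Control and 231, 257 and 251 with TGF-β1. This was a 4.60-fold change with no overlap (log2 fold change 2.20 ± 0.06, adjusted p 8.37e-10), the smallest adjusted p of the 49 genes. ADAM12, which cuts insulin-like growth factor binding proteins (chr10:126012391-126388477), had 31.1, 32.1 and 31.5 CPM in Control and 69.1, 75.0 and 75.1 with TGF-β1. It rose by 1.21 ± 0.06 on the log2 scale (adjusted p 5.13e-08).

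The broad sheddases did not share that rise. ADAM10, the main sheddase of Notch and cadherins, fell from 287 ± 12.5 to 222 ± 18.0 CPM (SD, n = 3), a log2 fold change of -0.37 ± 0.07 (adjusted p 9.88e-04). ADAM15 fell by 0.27 ± 0.06, ADAM9 by 0.39 ± 0.10 and ADAM22, which has no protease activity, by 0.55 ± 0.10 on the log2 scale. ADAM8 fell from 1.64 to 0.858 CPM (-0.95 ± 0.26 on the log2 scale, adjusted p 0.0116), and this call was lost without Control replicate 2 (adjusted p 0.0575). ADAM17, the sheddase of tumour necrosis factor, was not called at -0.19 ± 0.08 (adjusted p 0.0904). Its 3 treated libraries lay at 19.2, 21.6 and 24.4 CPM, below the controls at 24.5, 25.2 and 24.6, and it was called lower without TGF-β1 replicate 3 (adjusted p 0.0166). ADAM17 shares 24.1% of its exon bases with IAH1 on the other strand. ADAM9 has a second, partial entry off the primary chromosomes. It also shares 3.96% of its exon bases with TM2D2 on the other strand, which had 4305 reads in all against 2165 for ADAM9. The counts of ADAM17 and ADAM9 are thus less certain. In TPM, ADAM19 stood at 0.325 ± 0.018 of ADAM10 in Control and at 1.94 ± 0.054 times it with TGF-β1, and its share of the summed ADAM TPM went from 10.7% to 39.0%.

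The ADAMTS genes moved both ways as well, with 5 higher and 3 lower of 10 tested, beside 22.2% and 22.1% of all genes tested. ADAMTS15, a protease of versican and aggrecan (chr11:130448645-130478215), had 3.72, 3.39 and 4.09 CPM in Control and 16.3, 17.7 and 15.7 with TGF-β1. It rose by 2.15 ± 0.10 on the log2 scale (adjusted p 4.69e-08). ADAMTS6, a relative of ADAMTS10 that acts on microfibrils (chr5:65148736-65482663), had 34.8, 35.7 and 36.5 CPM in Control and 88.0, 105 and 106 with TGF-β1. Its log2 fold change was 1.48 ± 0.08 (adjusted p 7.72e-08), and ADAMTS10 itself, which binds fibrillin, rose by 0.89 ± 0.07. ADAMTS7, which cuts cartilage oligomeric matrix protein (chr15:78759203-78811476), had 4.21, 4.58 and 4.64 CPM in Control and 12.4, 11.6 and 10.6 with TGF-β1. It rose by 1.37 ± 0.11 on the log2 scale (adjusted p 1.88e-06), with the reserve that the genome holds close copies of this gene. ADAMTS5, the main aggrecanase of cartilage, rose by 0.34 ± 0.06 on the log2 scale.

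The 3 ADAMTS genes that fell were those with the highest TPM in Control, at 162, 64.9 and 35.1 for ADAMTS1, ADAMTS12 and ADAMTS9. ADAMTS1, a versican-cutting protease that also restrains blood vessel growth (chr21:26835755-26845409), had 276, 252 and 227 CPM in Control and 145, 169 and 180 with TGF-β1. Its log2 fold change was -0.61 ± 0.09 (adjusted p 5.05e-04). ADAMTS9, another protease of versican, had 77.7, 87.1 and 82.1 CPM in Control and 41.4, 55.2 and 55.0 with TGF-β1, a log2 fold change of -0.71 ± 0.11. ADAMTS12, which like ADAMTS7 cuts cartilage oligomeric matrix protein, fell from 186 to 118 CPM (-0.66 ± 0.10 on the log2 scale, adjusted p 5.94e-04). In each of these genes TGF-β1 replicate 1, which stood apart on the second component, was the lowest treated library, and without it the log2 fold changes of ADAMTS1, ADAMTS9 and ADAMTS12 were -0.54, -0.59 and -0.55, all still called. In TPM the ratio of ADAMTS7 to ADAMTS12 went from 0.0387 to 0.161 and that of ADAMTS15 to ADAMTS1 from 0.0118 to 0.0800, so ADAMTS7 stayed below ADAMTS12 and ADAMTS15 below ADAMTS1. The summed ADAMTS TPM was 306 ± 9.28 in Control and 233 ± 27.7 with TGF-β1, and that of the ADAMs 255 ± 4.50 and 299 ± 18.5, each without overlap. ADAMTS16 and ADAMTS17 were not called (0.14 ± 0.16 and -0.52 ± 0.42).

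The remaining 17 genes were under the count filter. Besides MMP10 and MMP3, 5 of them had reads, with 8 and 7 in the 2 groups for ADAM28, 2 and 4 for ADAM23, 3 and 7 for ADAMTS4, 14 and 21 for ADAMTS18 and 1 and 0 for ADAMTS8. None of these ratios had an interval that excluded 1. No reads were counted for 10 genes, namely MMP8, MMP11, MMP12, MMP28, TIMP3, TIMP4, ADAM33, ADAMTS13, ADAMTS19 and ADAMTS20. For MMP11, MMP28 and ADAMTS13 this does not show that the gene was silent. Each of them has a second entry off the primary chromosomes, and neighbours that have one too were also near 0, SMARCB1 beside MMP11 with 0 to 1 reads, TAF15 beside MMP28 with 1 to 6, and SURF4 beside ADAMTS13 with 2 to 5 reads a library.

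Genes that act on these enzymes were examined as lists, to be read beside the 44.3% of all genes tested that were called. FURIN, the convertase that removes the prodomain of membrane-type MMPs and of many ADAMs and ADAMTS proteases, rose by 1.57 ± 0.06 on the log2 scale from 45.2 to 134 CPM (adjusted p 1.08e-08). It was the only call among 4 proprotein convertases, of which 2 could be tested. Of 9 partners of ADAM10 and ADAM17, 3 rose and 3 fell. RHBDF2 and FRMD8, which keep ADAM17 mature and at the surface, rose by 0.66 ± 0.07 and 0.66 ± 0.06 on the log2 scale, while RHBDF1 fell by 0.25 ± 0.07, a call lost by DESeq2 (adjusted p 0.0683) and in 4 of the 6 fits without 1 library. TSPAN14 rose by 0.20 ± 0.05, and TSPAN10 and TSPAN33 fell by 0.82 ± 0.24 and 0.25 ± 0.09. The calls of these TSPAN genes were not followed in the other fits. Of 6 other regulators of MMPs, 4 were tested and 1 was called. This was SPOCK1, a secreted testican proteoglycan, at 0.93 ± 0.05, whereas the membrane inhibitor RECK and the MMP inducer BSG had log2 fold changes of -0.08 ± 0.08 and -0.04 ± 0.07. ADAM11, PAPLN and the names given here other than FURIN were chosen after their values were seen.

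Most genes in the rest of the families were too low to test. Of 18 further MMP, ADAM and ADAMTS genes, 4 were tested, 2 fell and 8 had no reads. The share called of those tested, 50%, was near the 44.3% of all genes tested, so it is no result about these genes. ADAMTS3, a procollagen N-propeptidase that also activates vascular endothelial growth factor C, fell by 1.25 ± 0.08 on the log2 scale from 111 to 46.6 CPM (adjusted p 4.35e-07). ADAM11, which is no active protease, fell by 0.67 ± 0.20, a call lost by DESeq2 (adjusted p 0.137) and in 3 of the 6 fits without 1 library. Of 7 ADAMTS-like proteins, which share the ADAMTS matrix-binding modules without a protease domain, 6 were found under the symbol used. Of these, 4 were tested and 2 fell, again 50%, and ADAMTSL6 was not found by that symbol. ADAMTSL4, a fibrillin-binding protein, fell by 1.08 ± 0.21 and PAPLN (papilin) by 0.89 ± 0.06 on the log2 scale.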

How the data were processed

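Poly(A) RNA of 3 Control and 3 TGF-β1 libraries of HK-2 cells was sequenced. Per the labels and the methods of the study, RNA was captured on oligo(dT) beads and copied from random hexamers, and adapter and low-quality reads were removed. The submitters' processing notes name CASAVA, featureCounts 2.0.1, DESeq2 1.16.1 and hg38. The aligner, the strand setting and the treatment of multiply mapped reads were not given in the sources used here. Each deposited table holds raw counts per gene, with no normalization, beside TPM and FPKM that the authors computed from them. The deposited FPKM were used only to check the arithmetic (recomputed TPM and FPKM differed by at most 3.57e-06). The tables list 42095 entries, 598 of them loci without a name (0.396% to 0.464% of counts), which were left out, and 7 records broken over several lines were rejoined.

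Counts were tested with edgeR 4.0.16 (R 4.3.3; filterByExpr with a minimum count of 10, which came to 0.420 CPM, TMM scaling, robust quasi-likelihood F test) on all named genes, with Benjamini-Hochberg adjustment over the 14860 genes kept and a threshold of 0.05. CPM values use TMM-scaled library sizes, and the SE of a log2 fold change is its size over the square root of F. Only entries on primary chromosomes were taken for the genes described. The script was tested on simulated data. Alternatives were other scalings and filters, DESeq2 1.42.0, limma-voom 3.58.1, a replicate block, primary-chromosome entries only and leaving out each library. Every gene was accounted for. Values of every library were given for genes called with at least a 2-fold change and a mean of at least 1 CPM in the higher group, for the tested TIMPs and for the 5 genes highest in TPM, and from other lists up to 8 called genes with at least a 2-fold change were named. The genes and lists were chosen with earlier results of these data known, and the subgroups of MMPs after the values were seen. At 21938622 to 26906067 counts a library, a gene with no reads in a group is limited to about 0.0426 CPM, and intervals and limits cover counting error only.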

Additional observations from a re-analysis of the deposited data

How the results depend on the processing

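Of the 26 called genes, 25 kept their call in each of the 8 alternative fits that tested them and in all 6 fits without 1 library. The exception was ADAM8, lost without Control replicate 2. A filter at a mean of 50 counts left out 6 tested genes, 2 of them called. The counts of proteases and TIMPs called ranged from 14 to 15 higher and 11 to 14 lower in the fits without 1 library, where the added higher call was MMP10, which passed the filter in 4 of the 6 through the TGF-β1 libraries alone and so is no support for a rise. Of the genes not called, MMP16 moved between -0.2583 and 0.0728 as single libraries were left out, changing sign without Control replicate 3, and ADAM17 was called lower with total counts only (-0.30). Scaling to total counts only shifted the all-gene median log2 fold change by -0.11, called 2134 genes higher in place of 3294, and lowered the share of higher calls from 50.05% to 31.7%. With all genes that had at least 1 count, 10 of the 49 genes were left untested in place of 17. The replicate numbers were not shown to pair the libraries. The deviations of same-numbered libraries correlated at 0.111, -0.0117 and 0.0762, libraries did not all correlate best with their own number, and with the replicate block 14 and 12 of the genes were again called higher and lower, and 3396 and 3394 of all genes. The ratio of summed MMP to TIMP TPM ranged from 1.31 to 1.37 in Control and from 1.001 to 1.03 with TGF-β1 when 1 library was left out. Depth limits the 17 untested genes, of which none could be shown to be absent.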

Other observations

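Entries of the same genes off the primary chromosomes entered no comparison above. The partial second entry of ADAMTS12 had 38 reads in Control and 20 with TGF-β1, against 13071 and 8315 at the primary entry. The second entry of MMP11 had 2 and 1 reads and that of ADAMTS13 had 4 and 5, while the primary entries of both had none. Those of MMP28 and ADAM9 had no reads. No locus without a name lay within 20 kb of any of the 49 genes.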
